A study of Mus musculus with 10 samples.

Results

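The collagen genes are the protein-coding mouse genes with a symbol of the form Col, number, a, number, and 44 of the 46517 Ensembl genes in the count tables met this rule. They were measured by Smart-Seq2, a plate method that reads whole transcripts of single sorted cells, in LECs, the endothelial cells of lymphatic vessels, and BECs, those of blood vessels, from mouse ear skin. The mutants were 5 mice of the Pik3caH1047R;Cdh5-CreERT2 strain that carried Cre and had 4-OHT (10 mg/ml in acetone) put on the ear skin at 3 wk of age. 4-OHT switches on Cre, which Cdh5-CreERT2 carries in endothelium of both vessel types, and Cre allows expression of the Pik3ca transgene. The tables have no entry for that transgene, so recombined and unrecombined cells of a mutant were not told apart. Of the controls, mouse 1 was C57BL/6J and received no 4-OHT, whereas mouse 2 was of the mutant strain without Cre and received 4-OHT like the mutants. All mice were 5 wk old. The third control mouse was not analysed here.

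Of 3456 wells, 3248 passed the filters on genes, reads and mitochondrial reads, and 1641 of these were LECs and 1490 were BECs. A cell was a LEC when Prox1, Flt4 and Mmrn1 together reached 300 CPM (reads scaled to a library of 1000000 reads) and exceeded Flt1, Emcn and Podxl, and a BEC when the reverse held, although the labels call every sorted well a LEC. No collagen entered that choice. Reads were summed per mouse and cell type, which gave 55616045–194353210 LEC reads and 38402388–99630824 BEC reads per mouse. Mutants 3 and 5 each had 2 plates and every other mouse had 1. Mutants 1 to 4 came from an earlier series of plate numbers, and mutant 5 and both controls from a later one, so plate series and genotype can be told apart only through mutant 5.

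Collagens are trimers of helical chains that are cut, cross-linked and laid down outside the cell. Basement membrane collagen IV forms the sheet under blood endothelium and a thin, broken layer under lymphatic capillaries, the multiplexins XV and XVIII sit in the same zone, and the fibrillar collagens I and III are bulk products of dermal fibroblasts. A collagen read in a sorted endothelial well can come from the endothelial cell or from fibroblast RNA in the well, so each collagen was set beside the reads of the fibroblast genes Pdgfra, Dcn, Lum and Dpt.

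Col18a1 and Col6a3 were the 2 collagens that edgeR, the main test below, called higher in mutant than in control BECs. The bases before their starts are shown for that reason. Each line gives the 250 bases upstream of a RefSeq start (GRCm38.p6) on the gene's own strand, with every match to GGGCGG or its reverse CCGCCC in capitals. The Col18a1 bases are chr10:77166531-77166780 and the Col6a3 bases chr1:90843972-90844221, both on the minus strand.
Col18a1: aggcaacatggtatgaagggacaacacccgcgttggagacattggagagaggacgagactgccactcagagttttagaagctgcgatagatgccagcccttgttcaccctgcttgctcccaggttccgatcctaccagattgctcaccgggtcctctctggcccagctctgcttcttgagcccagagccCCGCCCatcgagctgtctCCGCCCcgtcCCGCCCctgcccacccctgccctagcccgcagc
Col6a3: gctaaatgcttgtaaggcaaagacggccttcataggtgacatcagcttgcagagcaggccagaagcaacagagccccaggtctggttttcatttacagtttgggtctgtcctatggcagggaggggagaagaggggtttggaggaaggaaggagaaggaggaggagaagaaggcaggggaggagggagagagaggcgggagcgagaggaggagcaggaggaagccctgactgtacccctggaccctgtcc
The Col18a1 bases held 3 matches, and the Col6a3 bases held 0. Of 32851 such windows in the RefSeq table, 10756 (32.7%) held the motif, as did 22 of the 38 windows of the 35 collagens that the table lists. A match describes these letters and not a bound factor.

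A set of 3 chains made up most of the collagen reads of both endothelial types. Only Col4a1 and Col4a2, the common chains of basement membrane collagen IV, and Col18a1, the chain of collagen XVIII whose end fragment is endostatin, exceeded 100 CPM in every mouse, in LECs as in BECs. Together they took 66.9 and 78.1% of the summed collagen CPM in control LECs and 85.0–88.3% in mutant LECs, and 53.5 and 67.9% in control BECs against 80.3–87.6% in mutant BECs. In both cell types the control and mutant shares did not overlap. The summed CPM of the 3 did overlap in BECs, at 1668 and 2519 in controls against 2504–3290 in mutants. In LECs it did not, at 1764 and 2077 against 2219–2689 CPM. Col1a1, Col1a2 and Col3a1 together stood at 719 and 552 CPM in control BECs against 12.9–62.8 in mutant BECs. In LECs they stood at 275 and 202 against 8.67–91.2 CPM. A fall of these chains alone raises the share of the others. The sum over all 44 collagens overlapped between the groups, at 2638 and 2659.7 CPM in control LECs against 2583–3120.4 CPM in mutant LECs, and at 3117 and 3709 CPM in control BECs against 2989–3767 CPM in mutant BECs.

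Per kilobase of exon, the scale on which genes can be compared, Col18a1 led in LECs at 135 CPM per kb on average over the 7 mice, ahead of Col4a1 at 109, Col4a2 at 90.2 and Col23a1 at 24.5. The next 2 in LECs, Col5a2 and Col1a1, stood at 6.39 and 5.28 CPM per kb. In BECs the order was Col4a2 at 164 CPM per kb, Col4a1 at 162, Col18a1 at 79.3, Col15a1 at 19.1, Col6a3 at 13 and Col1a1 at 10.8. The order in BECs differed between the groups. In control BECs Col1a1 stood at 33.2 CPM per kb, above Col18a1 at 27.1 and Col6a3 at 2.49, whereas in mutant BECs Col18a1 stood at 100.2, Col6a3 at 17.1 and Col1a1 at 1.80. Col4a2 (149.9 CPM per kb) was ahead of Col4a1 (134) in control BECs and level with it in mutant BECs (169 and 173). Col4a1 and Col4a2 lie head to head on chromosome 8 (GRCm38), with first bases at 11312826 on the minus strand and 11312805 on the plus strand, and their first exons share 22 bases. The per-length ratio of Col4a1 to Col4a2 was 1.01–1.33 in LECs and 0.820–1.06 in BECs over the 7 mice. The shared bases are under 1% of either gene's exon length, so the levels hardly rest on them. At the other end, 8 collagens (Col6a4, Col6a5, Col6a6, Col10a1, Col19a1, Col24a1, Col25a1 and Col26a1) stayed below 1 CPM in every mouse in both cell types.

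**Figure D1:**
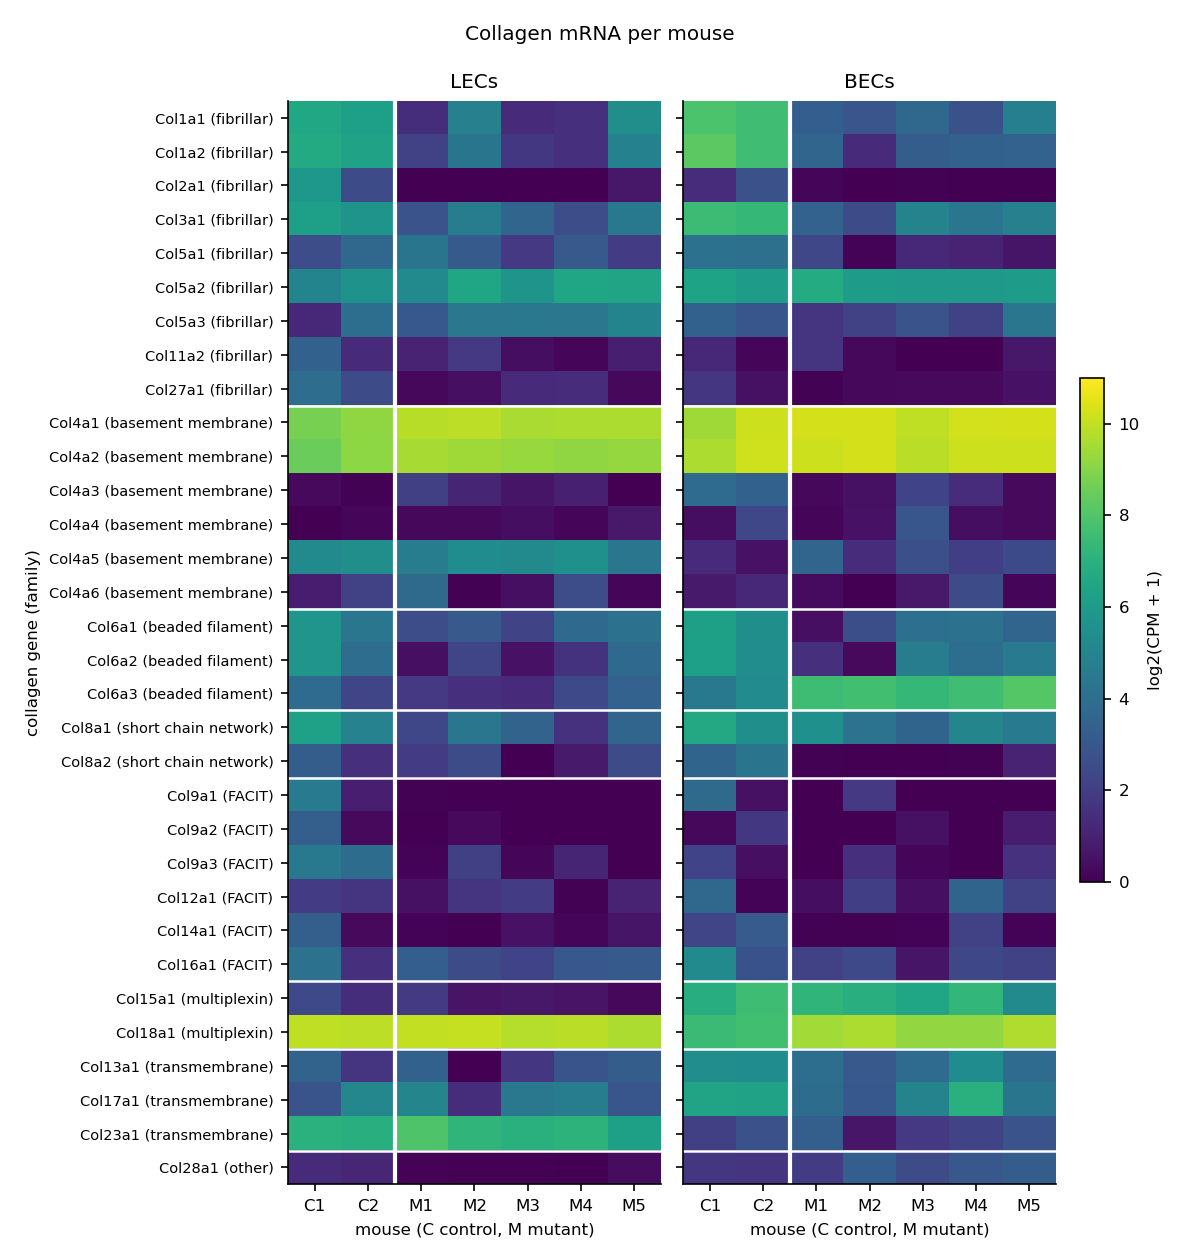
Level of 31 collagens, those with at least 5 CPM in some sum, in LECs and BECs of 2 control and 5 mutant mice, as log2(CPM + 1) of the reads summed per mouse. Col4a1, Col4a2 and Col18a1 are above 100 CPM in each column, Col23a1 stands out in LECs and Col15a1 in BECs, and Col1a1, Col1a2 and Col3a1 are above 50 CPM in all 4 control sums and below it in every mutant sum.

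Most collagens were read in few cells. After every cell was thinned to 50000 reads, a collagen was called broad when at least 20% of the cells without any Pdgfra, Dcn, Lum or Dpt read held it in every mouse. In LECs 4 were broad (Col4a1, Col4a2, Col18a1 and Col23a1), 39 sparse and 1 not seen. In BECs 4 were broad (Col4a1, Col4a2, Col15a1 and Col18a1), 38 sparse and 2 not seen. In those fibroblast-read-free LECs a Col18a1 read was found in 87.2–97.8% of cells and a Col23a1 read in 31.0–61.4%, and in such BECs a Col15a1 read in 23.6–67.8%. The 5% of cells with most reads held 15.1–27.3% of the Col4a1 reads of LECs, against 75.6–99.2% of their Col1a1 reads.

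The reads of fibroblast genes differed between the genotypes and therefore bear on every comparison below. Pdgfra, Dcn, Lum and Dpt summed to 190.0 and 49.9 CPM in LECs of controls 1 and 2, and to 11.9–36.1 CPM in LECs of the 5 mutants. In BECs they summed to 272 and 186 CPM in the controls and 4.71–14.8 CPM in the mutants. No read of these 4 genes was found in 25.1 and 21.7% of control LECs against 62.4–84.5% of mutant LECs, and in 19.5 and 47.8% of control BECs against 79.3–94.6% of mutant BECs. All 7 fibroblast markers checked had a lower mean in mutants in both cell types, with defining markers such as Pdgfra present at 3.09 and 0.376 CPM in control LECs. The sum of the mural cell genes was lower in mutant BECs, at 158–361 CPM against 998 and 544 CPM in controls. Cycling genes were higher, at 78.1–406 against 7.85 and 23 CPM. LECs showed the same shifts, with mural genes at 44.6–77.5 CPM in mutants against 167 and 133 CPM in controls and cycling genes at 330–628 against 36.8 and 71.1 CPM. Without cycling cells edgeR called 2 collagens in LECs and 6 in BECs, as many as with them. The share of all genes called in that fit is not given here, and equal counts do not show equal differences. The part of the mural reads in the differences was not tested.

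A set of 13 wells that were neither LEC nor BEC and held at least 300 CPM of the 4 fibroblast genes served as a reference for fibroblast RNA. Of these, 3 came from control 1, 8 from control 2 and 2 from mutant 5, and they also held reads of cartilage genes, so they are called fibroblast-like only by these reads. They carried 5455 CPM of Col1a2, 4808 of Col1a1, 4156 of Col3a1, 2411 of Col6a2 and 2266 of Col6a1, but 727 of Col6a3 and 87.5 of Col18a1. Given each sum's fibroblast reads, the ratio of a collagen to those reads was then divided by the same ratio in the reference wells. A value near 1 means that the collagen was as abundant, relative to the fibroblast reads, as in the reference wells.

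By that measure the chains of collagens I and III in control BECs were close to the ratio of the reference wells. The value in control BECs was 1.10 and 1.32 for Col1a1, 1.15 and 1.2 for Col1a2, and 0.968 and 1.24 for Col3a1. In mutant BECs, where few fibroblast reads were left, it ranged more widely, at 0.479–4.32 for Col1a1, 0.366–1.73 for Col1a2 and 1.47–7.78 for Col3a1, so Col3a1 was above the reference ratio in all 5 mutants. Other fibrillar chains of control BECs lay below it, with Col2a1 at 0.0492–0.249, or above it, with Col5a2 at 1.98–2.39. Col6a1 and Col6a2, 2 of the 3 chains of beaded filament collagen VI, were at 0.620–0.733 and 0.545–0.667 there. Endothelial collagens lay far above, with Col18a1 at 45.5–73.8 in control BECs and 2711–11725 in mutant BECs. Col4a1 was at 30.2–156 in control LECs and 296–891 in mutant LECs, and Col6a3 at 109–349 in mutant BECs. The mutant values are divided by the few fibroblast reads of the mutants, which raises them. Col6a3 in control BECs, at 0.625 and 1.73, was close to the fibroblast ratio.

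The same separation was seen by well. LECs rich in fibroblast reads (at least 100 CPM of the 4 genes) were 98 of 1641 (5.97%), and BECs rich in them were 75 of 1490 (5.03%). These few wells held 69.3% of the Col1a1 reads of LECs and 75.4% of those of BECs, 74.3 and 79.4% for Col1a2, 50.5 and 65.6% for Col3a1, and 86.4 and 56.6% for the cartilage collagen Col2a1. They held only 5.68 and 4.59% of the Col4a1 reads, 6.14 and 4.39% of the Col4a2 reads and 5.22 and 1.48% of the Col18a1 reads, close to their share of cells or below it. Col6a3 was split, with 58.1% of its LEC reads but 2.06% of its BEC reads in such wells. The sparse collagens with the largest shares were Col12a1 and Col9a2, FACIT collagens that decorate fibrils, at 92.7 and 92% of LEC reads, Col9a1 at 91.9% of LEC reads, and the short chain network collagen Col8a2 at 89.2% of BEC reads.

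In LECs the mutants were compared with the controls to ask which collagens differ in the lymphatic endothelium of the lesion. Of 38 collagens tested, Col4a1 was called higher and Col9a1 lower by edgeR's quasi-likelihood test at an adjusted p under 0.05 over all genes, beside 2.76% of all 19758 genes tested (1.96% higher, 0.805% lower). DESeq2 called 10 of them, beside 12.5% of all genes. The median log2 difference of the 38 collagens was -0.82, against -0.01 over all genes. Of the 38, 16 had an unadjusted p under 0.05, beside 3963 of all 19758 genes. In 15 of the 38 the 5 mutants did not overlap the 2 controls (3 higher, 12 lower), beside 25.2% of all genes (12.5% higher, 12.7% lower). The 12 lower ones included Col1a1, Col1a2, Col2a1, Col3a1, Col6a1, Col6a2 and Col8a1, and the fibroblast reads were lower too. Relative to the reference wells, control and mutant LECs overlapped for Col1a1 (0.629–1.80 and 0.120–1.47) and Col1a2 (0.611–1.74 and 0.107–0.878). They also overlapped for Col3a1, Col6a1, Col8a1 and Col6a2, the last with mutants down to 0.0531. Col2a1 lay at 0.776–2.41 in controls and 0–0.139 in mutants, the mutants below the ratio of the reference wells. Those wells also held cartilage reads, with Acan at 148 and Sox9 at 460 CPM. For this cartilage collagen the ratio is therefore not a measure of fibroblast RNA alone. In LECs without fibroblast reads, edgeR called 4 of 34 collagens, beside 5.96% of all genes.

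Col4a1 in LECs stood at 424 and 574 CPM in controls 1 and 2 and at 899.8, 946, 781, 789 and 791 CPM in mutants 1 to 5. Every mutant was above both controls. The log2 difference was 0.81 (SE 0.14, adjusted p = 0.0268). Its partner chain Col4a2 stood at 354 and 554 CPM in the controls and at 754, 691, 628, 576 and 620.4 CPM in the mutants. Again no mutant fell within the controls, but mutant 4 was only just above control 2, and the log2 difference of 0.58 (SE 0.17) missed the threshold at adjusted p = 0.106. Col18a1 did not follow them, at 986 and 948 CPM in controls against 808–1052 CPM in mutants, with a log2 difference of 0.00 (SE 0.13).

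The Col4a1 call in LECs was near the threshold and did not hold when most single mice were left out. It was lost without control 1 and without mutant 1, 2, 3 or 4 (adjusted p from 0.0566 to 0.0750), and with the plate series as a block the difference was 0.71 at adjusted p = 0.164. In LECs without fibroblast reads Col4a1 was 384 and 657 CPM in controls against 774–929 CPM in mutants, and the difference was 0.66 at adjusted p = 0.0845. The share of LECs with a Col4a1 read was high in all mice, at 89.1 and 89.7% in controls against 95.2–98.9% in mutants after thinning, a two-sided exact permutation p of 0.0952, which is the smallest that 5 against 2 mice allow. Without thinning the mean share differed by 0.533 percentage points, against 7.89 after it.

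Col9a1, a FACIT chain of cartilage, rested on 1 control. Its LEC reads numbered 1265 in control 1, 54 in control 2, 2 in mutant 1 and 0 in mutants 2 to 5. The controls together had 2778 times the mutants' rate (95% exact counting interval 768–22964, for counting error only), and edgeR gave an adjusted p of 0.0173. Without control 1 the call was lost (adjusted p = 0.101). As stated above, 91.9% of these reads lay in LECs rich in fibroblast reads. The chondrocyte marker sum was 291 CPM in LECs of control 1 against 141 CPM in control 2 and 57.4–160.1 CPM in mutants. Most of it was Comp, at 236 and 127 CPM in controls and 49.2–153.6 in mutants. Acan stood at 12.1 and 0.425 CPM against 0–0.0170, Cnmd at 19.1 and 3.59 against 0–0.396. Sox9 stood at 18.8 and 10.7 against 4.95–7.81, and Matn3 at 4.94 and 0.0327 against 0–0.974 CPM.

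The 4 collagens called in LECs without fibroblast reads were 3 lower ones, Col1a2, Col2a1 and Col9a1, and 1 higher one, Col5a3, which is described because it was called there. Controls 1 and 2 gave only 46 and 38 such cells, against 132–280 in each mutant. Col1a2 stood there at 15.7 and 26.6 CPM in controls and at 0.916–3.30 CPM in mutants (-3.62, SE 0.57, adjusted p = 0.0153). Its groups were still apart in cells with no read of the 4 fibroblast genes. Its partner Col1a1 (-2.07, adjusted p = 0.359) and Col3a1 (-0.65, adjusted p = 0.754) were not called by edgeR in these cells. Col2a1 was at 0.901 and 12.5 CPM in controls and at 0 CPM in mutants 1 to 4 (adjusted p = 0.0073). Col5a3, a chain of collagen V, stood at 0.410 and 0.375 CPM in controls and at 4.85, 18, 24.9, 19.8 and 32.0 CPM in mutants 1 to 5 (5.61, SE 0.93, adjusted p = 0.0175). Over all LECs it was not called, with controls at 1.36 and 14.9 CPM against 7.08–30.1 CPM in mutants, and 99% of its reads in control 2 lay in the 5% of cells with most of them.

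In BECs the mutants were compared with the controls in the same way. Of 37 collagens tested, 2 were called higher (Col18a1 and Col6a3) and 4 lower (Col1a1, Col1a2, Col2a1 and Col3a1), beside 1.51% of all 19315 genes called higher and 0.611% called lower, 2.12% in all. DESeq2 called 12, beside 11.6% of all genes. The median log2 difference of the 37 was -1.12, against 0.01 over all genes. In 17 of them the groups did not overlap (4 higher, 13 lower), beside 25% of all genes (12.2% higher, 12.8% lower). Of those edgeR called, the 2 that rose were of the multiplexin and beaded filament families and the 4 that fell were all fibrillar. It called 0 of the 6 basement membrane chains, whereas DESeq2 called Col4a5 higher and Col4a3 lower. An unadjusted p under 0.05 was found for 2 of the 6, beside 3793 of all 19315 genes.

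Col18a1 in BECs stood at 181 and 200.2 CPM in the controls and at 712, 807, 593, 586 and 818 CPM in mutants 1 to 5. The lowest mutant was far above the higher control, and the log2 difference was 1.95 (SE 0.19, adjusted p = 0.0043). In BECs without fibroblast reads the levels were 161 and 197 CPM in controls against 605–848 CPM in mutants. Mutant 5, which shares the plate series of the controls, had the highest level, and with the series as a block the call held at adjusted p = 0.0304. The share of BECs with a Col18a1 read after thinning was 67.3 and 54.1% in controls and 65.5–96.2% in mutants, which overlap (two-sided exact permutation p = 0.190).

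Col6a3, the long chain of collagen VI, is usually made together with Col6a1 and Col6a2. In BECs it stood at 20.6 and 39.0 CPM in the controls and at 193, 199.7, 159, 197 and 277 CPM in mutants 1 to 5. All mutants were above both controls, with a log2 difference of 2.84 (SE 0.32, adjusted p = 0.0072). With plate series as a block the call held (3.25, adjusted p = 0.0304). Over all BECs its partners went the other way, Col6a1 from 75.3 and 43.5 CPM to 0.365–16.9 CPM and Col6a2 from 73.0 and 40.7 CPM to 0.208–24.5 CPM, differences that edgeR did not call. In BECs without fibroblast reads this fall was not seen. The edgeR difference there was 2.97 for Col6a1 (adjusted p = 0.274) and -0.09 for Col6a2 (adjusted p = 0.980). The per-length ratio of Col6a3 to Col6a1 was 0.10 and 0.328 in control BECs, 0.117 in the fibroblast-like wells and 3.81–194 in mutant BECs. In BECs with no Col6a1 or Col6a2 read at all, Col6a3 was 0.408 and 10.8 CPM in controls against 163–285 CPM in mutants. Mutant BECs without a read of either partner thus held Col6a3.

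After thinning, a Col6a3 read was found in 12.6 and 7.64% of control BECs and in 45.9, 35.9, 37.6, 28.2 and 51.5% of the BECs of mutants 1 to 5 (two-sided exact permutation p = 0.0952, the smallest possible). The groups did not overlap. LECs, as a cell type with little of the gene, held such a read in 1.60–12.5% of cells, so control 2 lay within that range, control 1 just above it and every mutant well above it. The reads were not spread evenly, and Col6a3 was classed as sparse because 0 and 5.33% of fibroblast-read-free control BECs held one, against 31.2–52.0% in mutants. In those cells the level was 0.108 and 17.4 CPM in controls against 156–291 CPM in mutants, and the difference of 4.62 had an adjusted p of 0.0611, just above the threshold.

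The 4 fibrillar collagens that fell did so together with the fibroblast reads. Col1a2, a chain of collagen I, stood at 298 and 194 CPM in control BECs and at 11, 1.57, 8.58, 9.60 and 9.95 CPM in mutants. Its partner Col1a1 stood at 239 and 197 CPM in controls and at 8.80, 6.56, 12, 5.69 and 26.1 CPM in mutants, and Col3a1, the chain of collagen III, at 183 and 160.4 CPM against 4.80–29.3 CPM. The groups were far apart for all 3, with log2 differences of -4.87 (SE 0.55, adjusted p = 0.0072), -4.15 (SE 0.51, adjusted p = 0.0092) and -3.20 (SE 0.55, adjusted p = 0.0285). Col2a1 was low throughout, at 1.65 and 5.70 CPM in controls against 0–0.130 CPM in mutants (adjusted p = 0.0440).

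None of these 4 calls held in BECs without fibroblast reads, where 1 of 34 collagens (Col18a1) was called, beside 3.87% of all genes. There Col1a1 was 2.37 and 3.50 CPM in controls and 0.916–27.1 CPM in mutants, with the difference turned to 1.69 (adjusted p = 0.452). Col1a2 was 35 and 11 CPM against 1.38–13.7 CPM, and its difference shrank to -1.93 (adjusted p = 0.258), while that of Col3a1 shrank to -1.35 (adjusted p = 0.356). That of Col2a1 was -4.97 (adjusted p = 0.10). Without the BECs rich in fibroblast reads, an exclusion chosen after seeing the data, 2 collagens were called in place of 6. The share of all genes called in that fit is not given here. With plate series as a block all 4 calls were lost, at adjusted p of 0.0920 for Col1a1, 0.208 for Col1a2, 0.428 for Col3a1 and 0.389 for Col2a1. The Col3a1 call was also lost without control 1, control 2, mutant 1 or mutant 4, and the Col2a1 call without either control or mutant 2, 3, 4 or 5.

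**Figure D2:**
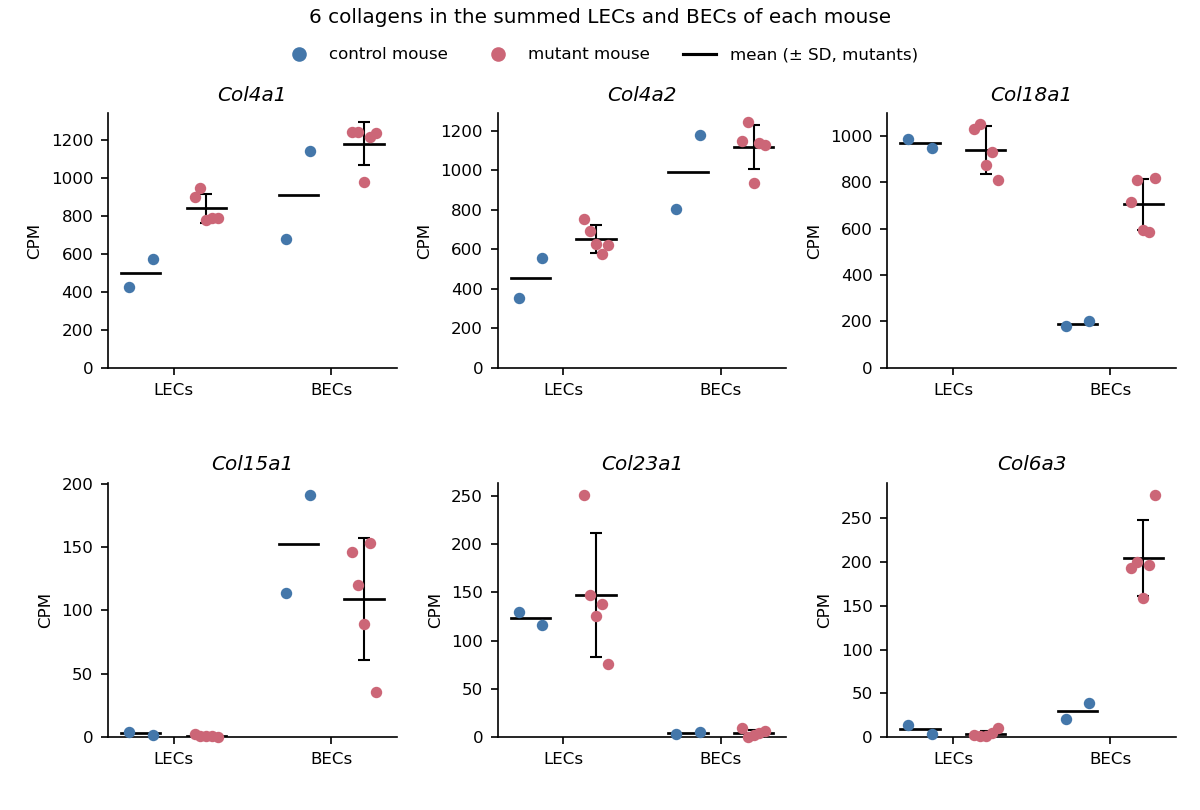
CPM of Col4a1, Col4a2, Col18a1, Col15a1, Col23a1 and Col6a3 in the summed LECs and BECs of each mouse; each point is 1 mouse, and the bar is the group mean. Col18a1 and Col6a3 of mutant BECs stand apart from control BECs, at 586–818 against 181 and 200.2 CPM and 159–277 against 20.6 and 39.0 CPM, while Col18a1 of LECs overlaps between the groups.

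The difference between the mutant minus control changes of LECs and BECs was tested as an interaction. Col18a1 was the only one of 38 collagens called, beside 0.191% of all 21933 genes (DESeq2 called 8, beside 5.66%), with a value of -1.96 (SE 0.19, adjusted p = 0.0140). Its level in mutant BECs, 703 ± 112 CPM (SD, n = 5), came nearer to that of mutant LECs, 938 ± 103 CPM, whereas control BECs were at 181 and 200.2 CPM and control LECs at 986 and 948 CPM. The call was lost without control 1, control 2, mutant 1 or mutant 2 (adjusted p from 0.0510 to 0.0804) while the value stayed between -2.11 and -1.85 there. For Col6a3 the interaction was -4.09 (SE 0.88) with adjusted p = 0.133, so a change particular to BECs was not shown for it by this test.

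LECs and BECs of the same mouse were then compared directly, with mouse as a block. Of 35 collagens tested, 3 were called higher in LECs and 6 higher in BECs, beside 26.4% of all 17593 genes, so the share of collagens called, 9 of 35, was near the background (14% of all genes higher in LECs, 12.4% in BECs). DESeq2 called 19, beside 35% of all genes. Among the basement membrane chains Col4a5, a collagen IV chain encoded on the X chromosome, was higher in LECs and Col4a1 and Col4a2 higher in BECs. Of the 2 multiplexins, Col15a1 was higher in BECs by both tools, and Col18a1 was called higher in LECs by DESeq2 and not by edgeR.

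Col23a1, a transmembrane collagen that can be shed from the cell surface, was the clearest LEC collagen. It stood at 130.2 and 117 CPM in LECs of the controls and 252, 147, 125, 138 and 76.3 CPM in those of the mutants, against 0.600–9.17 CPM in BECs. It was higher in LECs in 7 of 7 mice, with a log2 difference of 5.16 (SE 0.47, adjusted p = 5.0e-05). Col4a5 was at 19.2–44.3 CPM in LECs and 0.463–10.9 CPM in BECs (3.58, SE 0.65, adjusted p = 0.0032). Col27a1, a fibrillar chain of cartilage, was also called (2.07, adjusted p = 0.0413) but at 0.186–14.2 CPM, with 55.4% of its LEC reads in wells rich in fibroblast reads. Without those wells its call was lost (adjusted p = 0.0734).

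Col15a1, the other multiplexin, was the clearest BEC collagen. It stood at 113 and 191 CPM in control BECs and at 146, 119.7, 89.4, 153 and 35.8 CPM in mutant BECs, against 0.170–4.40 CPM in LECs. The lowest BEC sum, that of mutant 5, was above every LEC sum, and the log2 difference between LECs and BECs was -6.88 (SE 0.50, adjusted p = 1.5e-05). Col6a3 had a difference of -5.07 (SE 0.84, adjusted p = 0.0018) that came mostly from the mutants, and Col28a1, a collagen of the von Willebrand A domain family, was at 2.22–8.89 CPM in BECs and 0.0170–1.54 CPM in LECs (-5.02, SE 1.28, adjusted p = 0.0181). Col13a1, a transmembrane collagen, was at 7.41–40.4 CPM in BECs and 0–10.3 CPM in LECs (-2.59, SE 0.83, adjusted p = 0.0461).

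The collagen IV pair differed less but evenly. Col4a1 stood at 681 and 1141 CPM in control BECs and 976–1240.5 CPM in mutant BECs, and Col4a2 at 807 and 1177 CPM in control BECs and 935–1244 CPM in mutant BECs. Both were higher in BECs than in LECs of the same mouse in 7 of 7 mice. The log2 differences were -0.60 for Col4a1 (SE 0.08, adjusted p = 7.3e-04) and -0.89 for Col4a2 (SE 0.08, adjusted p = 5.4e-05). In BECs neither differed between mutants and controls beyond the threshold (0.44, adjusted p = 0.268, and 0.24, adjusted p = 0.472). Col18a1 was higher in LECs by 0.94 (SE 0.32, adjusted p = 0.0573), with the gap wide in controls and narrow in mutants as given above.

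**Figure D3:**
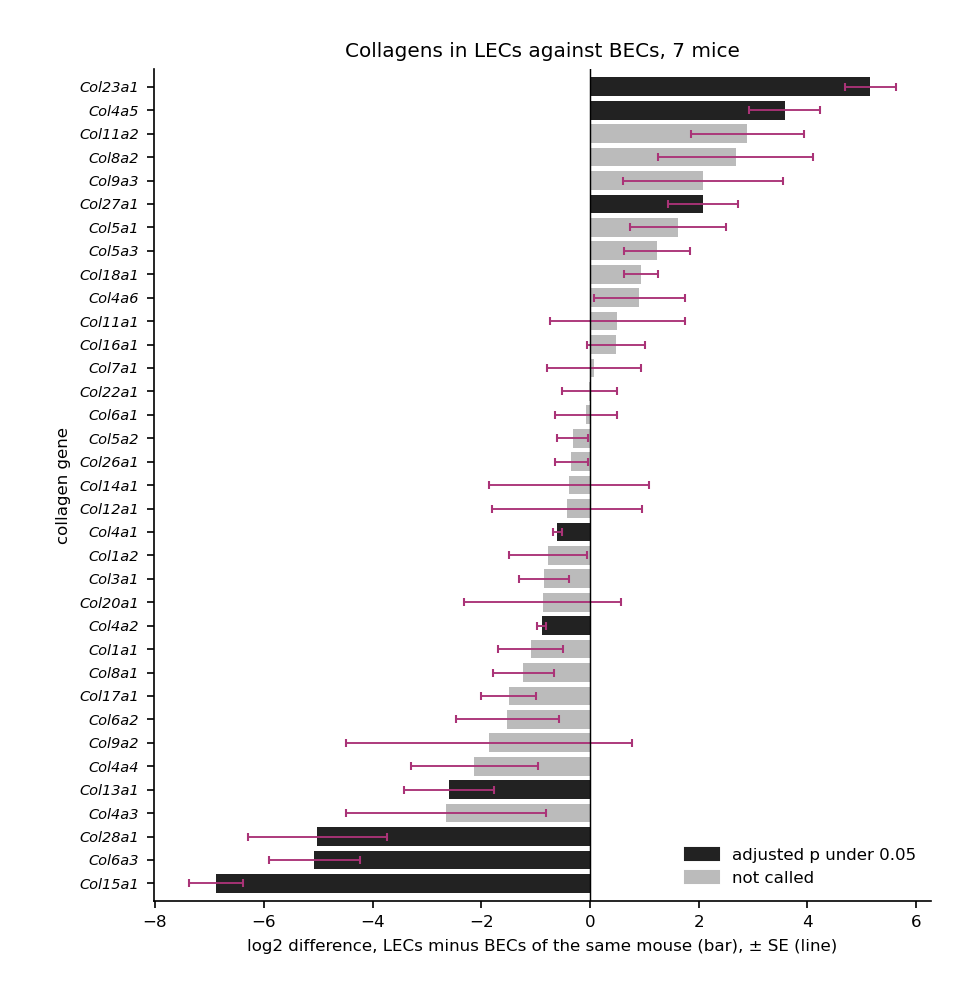
Log2 difference between LECs and BECs of the same mouse for the 35 collagens tested; bars are edgeR estimates ± SE, positive values are higher in LECs, and dark bars are the 9 with an adjusted p under 0.05. Col23a1, Col4a5 and Col27a1 are called on the LEC side and Col15a1, Col6a3, Col28a1, Col13a1, Col4a2 and Col4a1 on the BEC side.

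Within LECs, cells with at least 50 CPM of Cldn11, a gene of lymphatic valve cells, were set against cells with no Cldn11 read of the same mouse. Of 22 collagens tested, 2 were called, both lower in the Cldn11-positive cells, beside 0.436% of all 14437 genes. DESeq2 called 4, beside 3.86%. Col18a1 stood at 464 and 184 CPM in Cldn11-positive and 1086 and 1062 CPM in Cldn11-negative LECs of the controls, and at 496–676 against 957–1271 CPM in the mutants. It was lower in the positive cells in 7 of 7 mice, by 1.16 on the log2 scale (value -1.16, SE 0.19, adjusted p = 0.0364). Col4a1 was lower in 7 of 7 mice too (-0.56, SE 0.09, adjusted p = 0.0260). When single mice were left out, the Col18a1 call was lost without control 1 or any 1 of the mutants and the Col4a1 call without either control or mutants 2 to 5, with adjusted p up to 0.109 and the direction kept.

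Cells with Ptx3, which marks a class of capillary LECs, were compared with LECs without it. Of 24 collagens, edgeR called 0 and DESeq2 called 5, beside 1.21 and 7.35% of all genes. An unadjusted p under 0.05 was found for 6 of the 24, beside 1585 of all 14180 genes. Among these, Col5a2, a chain of collagen V, was higher in Ptx3-positive cells in 7 of 7 mice (64.7–113 against 15.8–83.5 CPM, adjusted p = 0.164) and Col4a5 lower in 7 of 7 (0.732–21.1 against 23.2–74.7 CPM, adjusted p = 0.167). These 2 genes were picked after their values were seen. The Ptx3-negative class held only 13 cells in mutant 1 and 12 in mutant 5, and the Ptx3-positive class 12 in control 1.

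In BECs, cells with at least 50 CPM of Apln, a gene of angiogenic tip cells, were compared with cells without an Apln read. edgeR called 0 of 18 collagens and DESeq2 called 2, beside 0.0304% of all genes by edgeR and 7.28% by DESeq2. An unadjusted p under 0.05 was found for 2 of the 18, beside 1051 of all 13157 genes. Col6a3 stood at 343, 322, 245, 315 and 424 CPM in Apln-positive BECs of mutants 1 to 5, against 2.18, 1.60, 37.2, 0.868 and 64.6 CPM in their Apln-negative BECs. The classes did not overlap among the mutants, but in the controls the positive cells held only 1.07 and 1.01 CPM and the negative cells 1.99 and 61.1 CPM. The difference over all mice was 3.51 (SE 1.71, adjusted p = 0.656), and the negative class held only 9–14 cells per mutant. Col18a1 was higher in Apln-positive BECs in 7 of 7 mice (0.59, SE 0.19, adjusted p = 0.437), and its controls, at 362 and 198 CPM in Apln-positive cells, stayed below the 797–1116 CPM of the mutants.

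The machinery that modifies, folds, exports and cross-links collagen was followed as a list of 36 genes, 34 of them tested. In mutants against controls edgeR called 2 higher and 0 lower in each cell type, beside 1.96% of all genes higher and 0.805% lower in LECs and 1.51 and 0.611% in BECs. DESeq2 called 7 higher and 2 lower in LECs, beside 1571 and 901 of all 19758 genes. In BECs it called 6 higher and 0 lower, beside 1489 and 749 of all 19315 genes. The list medians were 0.32 in LECs and 0.30 in BECs, against -0.01 and 0.01 over all genes. Sparc, a matrix protein that binds collagen, stood at 490.3 and 470.2 CPM in control LECs and at 1329, 1208, 1278, 1297 and 1598 CPM in mutant LECs. The groups were well apart (log2 difference 1.53, SE 0.14, adjusted p = 0.0039). In BECs Sparc was 2597 and 3892 CPM in controls against 3609–4836 CPM in mutants, which overlap, with a difference of 0.47 (adjusted p = 0.207).

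Fkbp10, a prolyl isomerase of the endoplasmic reticulum that helps collagen fold, rose in both cell types. It stood at 296 and 329 CPM in control LECs against 428–529 CPM in mutant LECs (0.65, SE 0.13, adjusted p = 0.0383), and at 153 and 111 CPM in control BECs against 309–428 CPM in mutant BECs (1.51, SE 0.21, adjusted p = 0.0122). Tll1, a protease of the family that trims procollagen, stood at 24.9 and 15.6 CPM in control BECs and at 157, 158, 149.9, 151 and 112 CPM in mutant BECs. No mutant came near the controls (2.91, SE 0.28, adjusted p = 0.0043). Between LECs and BECs, edgeR called 6 of the 34 genes higher in LECs and 10 higher in BECs, beside 14 and 12.4% of all genes.

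Collagen receptors were a list of 12 genes. In LECs, of 11 tested, Itgb1, the beta chain shared by the collagen-binding integrins, stood at 639 and 653 CPM in controls and at 970.5, 1054, 1164, 1178 and 1222 CPM in mutants. It rose in every mutant (0.84, SE 0.13, adjusted p = 0.0191). Ddr2, a receptor tyrosine kinase for fibrillar collagen, was lower, at 22.2 and 3.23 CPM against 0.557–1.37 CPM (-3.81, SE 0.72, adjusted p = 0.0355). The 4 fibroblast genes were at 190.0 and 49.9 CPM in those controls against 11.9–36.1 CPM in mutants. The part of fibroblast RNA in the Ddr2 difference was not separated. In BECs, of 10 tested, Adgrg6, an adhesion receptor that binds collagen IV, stood at 2.15 and 0.585 CPM in controls and at 52.9, 27.5, 26.8, 41.1 and 24 CPM in mutants (4.70, SE 0.67, adjusted p = 0.0139). Itga11, the integrin chain of fibroblasts for collagen I, was lower, at 2.93 and 3.95 CPM against 0.0231–0.130 CPM (-5.72, SE 0.83, adjusted p = 0.0152). The 4 fibroblast genes fell there as well, from 272 and 186 CPM to 4.71–14.8 CPM. Between LECs and BECs, of 9 tested, edgeR called 2 higher in LECs and 5 higher in BECs, beside 14 and 12.4% of all genes.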

How the data were processed

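Counts per gene and well were deposited for 9 plates of 5 mutant and 2 control mice. Per the labels and the methods, the authors aligned reads with TopHat2 2.1.1 to GRCm38 plus the chicken PIK3CA sequence, removed duplicates with SAMtools 0.1.18 and counted with featureCounts, with no other normalization. The annotation version is not given in the sources used here, and strand was not stated to be used. Removing duplicates can lower the counts of short, abundant transcripts. The gene length deposited with each plate is the summed exon length in bases. The 92 spike-ins were left out.

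Wells entered with 200 or more genes, 50000 or more reads and no more than 10% of reads from mitochondrial genes. No doublet caller was run. Reads were summed per mouse and cell type (2 plates of 1 mouse were added) and tested across all genes with edgeR 4.0.16 in R 4.3.3 (TMM, filterByExpr, quasi-likelihood F test, Benjamini-Hochberg over all genes tested). The SE of a log2 difference is its size over the root of F. Levels are CPM of the sums, and mice are the replicates, so p-values measure the spread between these mice. Smart-Seq2 reads carry no molecular barcodes, so intervals cover counting error only. Shares of cells were taken after thinning each cell to 50000 reads and compared with two-sided exact permutation tests over mice. Kept cells had a median of 250729–404517 reads per mouse. Symbols and positions came from GENCODE vM21, and sequences from RefSeq.

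Members, gene lists and tests were chosen with earlier results of these data known. Named with values were collagens called in a comparison, the 6 with the highest level per kb in each cell type and at most 4 sparse ones with most reads in wells rich in fibroblast reads, and, of the other lists, genes called in mutants against controls. Exons of each collagen overlap those of other genes by at most 6.07% of their length. Scripts were tested on simulated data. Alternatives were DESeq2 1.42.0, its size factors in edgeR, no low-count filter, thinning, each mouse left out, other cell choices and blocks.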

Additional observations from a re-analysis of the deposited data

Results flagged for a closer look

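Of 31 groups of 5 mutant mice checked for a mouse that stands apart, 7 held one. A chance rate of about 1 in 20 holds only for normally spread values. It sets no scale for levels near 0, such as those of Col9a1 and Col8a2 below, so no excess over chance was shown. In BECs these were mutant 1 for Col5a2 (109 CPM against 58.2–65.7 in the other mutants), mutant 2 for Col1a2 (1.57 CPM against 8.58–11) and for Col9a1 (2.59 CPM against 0–0.0260), mutant 3 for Col4a1 (976 CPM against 1213–1240.5), mutant 4 for Col13a1 (39.8 CPM against 7.41–14.8) and mutant 5 for Col8a2 (1.04 CPM against 0–0.0521). In LECs it was mutant 1 for Col15a1 (2.62 CPM against 0.170–0.625). Mutant 3 was the lowest in Col4a1 of BECs but still above control 1. The other result for a closer look is the Col18a1 difference between cell types, where the mutant minus control change was smaller in LECs than in BECs by a log2 value of -1.96 (edgeR interaction, adjusted p = 0.0140), with BECs of 5 of 5 mutants above both controls.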

How the results depend on the processing

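The number of collagens called moved with the tool, the cells and the mice. DESeq2 called 10 in mutant against control LECs (2 by edgeR), 12 in BECs (6), 19 between LECs and BECs (9), 8 for the interaction (1), 4 for Cldn11 (2), 5 for Ptx3 (0) and 2 for Apln (0), where thinned cells gave 1. Without fibroblast reads, 4 were called in LECs (Col1a2, Col2a1 and Col9a1 lower, Col5a3 higher, and no longer Col4a1) and 1 in BECs (Col18a1), and without cells rich in them (chosen after seeing the data) 4 and 2. With plate series as a block 0 and 2 (Col18a1 and Col6a3) were called, and with mutant 5 and the controls alone 0 and 0. Leaving out 1 mouse gave 0–4 in LECs, 4–6 in BECs, 6–10 between LECs and BECs, and 0–1 for the interaction and for Cldn11. Mouse numbers 1 and 2 occur in both groups but mark no shared litter or day, and same-numbered mice did not deviate together (correlations -0.05 to 0.11). With that number as a replicate block, 0 collagens were called in LECs and 0 in BECs. Across the alternatives, the count over all genes also moved, from 3 to 2472 in LECs and from 0 to 2238 in BECs. A count of 0 collagens can therefore go with few genes called at all. The Col18a1 difference in LECs, 0.00, turned to -0.0188 with DESeq2 and -0.0188 with its size factors, -0.0659 in cells without fibroblast reads, -0.0709 without cells rich in them, -0.22 with plate series as a block and -0.21 in mutant 5 alone, and ranged from -0.0666 to 0.0998 with 1 mouse left out. Col4a2 in BECs ranged from -0.0015 to 0.53 with 1 mouse left out, Col1a1 in BECs turned to 1.69 in cells without fibroblast reads, and unthinned shares of cells with a Col4a2 read turned to -0.80 percentage points in LECs and -0.60 in BECs. The cause was not tested. With 2 controls, 5 against 2 mice cannot reach an exact p under 0.0952, and most collagens have too few cells with reads for a share to be compared.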
